A study of Mus musculus with 6 samples.

Results

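The 3 genes described here, Cacna1h, Cacna1g and Cacna1i, encode the pore subunits of the T-type calcium channels. They were taken by symbol from the deposited count table, in which all 3 were found among 23306 rows, and all 3 passed the filter on low counts that left 12449 genes for testing. The libraries hold RNA bound to ribosomes of parvalbumin neurons, the fast-spiking inhibitory interneurons, from the frontal cortex of male C57BL6 mice. Knockout mice carried a conditional deletion of Fxr1, which encodes a relative of the fragile X protein that binds RNA, driven by a Cre recombinase under parvalbumin control. Wild type mice had intact Fxr1. Both genotypes came from a cross of that Cre line with mice carrying an HA-tagged copy of the ribosomal protein Rpl22 (RiboTag), and the tag is what the antibody pulls down. Cre acts in any cell that has used the parvalbumin promoter, and the age of the mice is not given in the sources used here. Of 6 libraries in the series, 4 were analysed: knockout replicates 1 and 3 and wild type replicates 2 and 3. The labels do not say whether the libraries are from different animals. The p-values therefore measure spread among libraries, and part of it may be technical.

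T-type channels open at voltages close to the resting potential, well below the voltages that other calcium channels need, and inactivate quickly. This lets them start low-threshold calcium spikes and rebound bursts after inhibition. A pore subunit alone can form the channel, and each of the genes gives a channel with its own kinetics: Cacna1g encodes Cav3.1, Cacna1h Cav3.2, which is the member most sensitive to block by nickel, and Cacna1i Cav3.3, the slowest of the family. In the brain Cav3.3 is best known from the reticular nucleus of the thalamus, whose inhibitory neurons also contain parvalbumin. Cacna1h was of special interest because a published study of Fxr1 in parvalbumin neurons singled it out. Whether that study used these same libraries was not established here. The T-type genes were chosen with earlier results of these data known, so the values below are not an independent check of it.

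Because the genes are related in sequence, the stretches that they share come first: these are where a read could be assigned to the wrong member. Positions are those of mm10. Cacna1h (ENSMUSG00000024112.16) lies on the minus strand of chromosome 17 at 25374285 to 25433783. Cacna1g (ENSMUSG00000020866.17) lies on the minus strand of chromosome 11 at 94408391 to 94474198. Cacna1i (ENSMUSG00000022416.15) lies on the plus strand of chromosome 15 at 80287238 to 80398279. Their longest annotated transcripts have 35, 38 and 37 exons. Between each pair of these transcripts, the longest identical run is printed in capitals with 10 flanking bases on either side in lower case. Sequences are read 5′ to 3′ along the transcript, from GENCODE M21.

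Cacna1h and Cacna1g share a run of 41 bases, which crosses an exon junction in both genes. It lies in coding exons 7 and 8 of Cacna1h (chr17:25393571-25393756, minus strand, intron included) and in coding exons 6 and 7 of Cacna1g (chr11:94461953-94462178, minus strand, intron included).
Cacna1h: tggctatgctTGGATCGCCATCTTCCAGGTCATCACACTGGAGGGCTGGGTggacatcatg
Cacna1g: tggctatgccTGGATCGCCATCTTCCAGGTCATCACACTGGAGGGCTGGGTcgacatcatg

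Cacna1h and Cacna1i share a run of 50 bases in coding exon 25 of each (chr17:25383173-25383242, minus strand, and chr15:80378179-80378248, plus strand).
Cacna1h: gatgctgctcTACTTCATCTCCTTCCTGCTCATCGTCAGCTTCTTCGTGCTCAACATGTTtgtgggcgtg
Cacna1i: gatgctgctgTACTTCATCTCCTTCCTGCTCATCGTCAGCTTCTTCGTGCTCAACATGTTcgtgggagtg

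Cacna1g and Cacna1i share the longest run of the 3 pairs, 68 bases, in coding exon 11 of Cacna1g (chr11:94443177-94443264, minus strand) and coding exon 12 of Cacna1i (chr15:80369678-80369765, plus strand).
Cacna1g: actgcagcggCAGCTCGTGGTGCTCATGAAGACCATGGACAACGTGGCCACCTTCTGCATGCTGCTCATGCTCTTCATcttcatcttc
Cacna1i: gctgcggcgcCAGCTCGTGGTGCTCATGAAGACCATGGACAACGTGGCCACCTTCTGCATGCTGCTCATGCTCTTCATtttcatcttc

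Such runs were rare along the transcripts. Of the 8181 windows of 50 bases in the Cacna1h transcript, 1 occurred in Cacna1i and none in Cacna1g. Cacna1g shared 19 of its 8334 windows with Cacna1i, and no transcript of any other gene held a window of Cacna1g. The read length is not given in the sources used here, and the share of reads that could have been misplaced was not computed. The last exon of Cacna1h also overlaps Tpsg1, a mast cell protease gene on the opposite strand, over 158 exon bases, and 109 windows were shared there. Whether reads were counted by strand is not given. Tpsg1 was listed with 0 counts in all 4 libraries, and a count of 0 allows up to 3 counts in each.

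The 4 libraries held 9696126 to 10301280 counts. The parvalbumin neuron marker Pvalb stood between 239 and 266 CPM (counts divided by library size and scaled by TMM, a normalization that lines up the bulk of genes between libraries), and Gad1, a GABA-synthesising enzyme gene, between 4018 and 4331 CPM. Transcripts of other cells were present too, with the excitatory transporter gene Slc17a7 at 67.9 to 85.0 CPM and the excitatory kinase gene Camk2a at 668 to 719 CPM. Markers of thalamus (Tcf7l2, Prkcd, Slc17a6, Lef1, Gbx2 and Rgs16) were low. Over these 6 genes they summed to 4.47 to 6.75 CPM in knockout and 6.65 to 6.98 CPM in wild type. Of the 4 tested, 1 (Prkcd) was lower in knockout without overlap and 0 higher, where 15.2% of all tested genes were lower in this way. Whether this list would show neurons of the reticular nucleus was not tested. The ribosomal RNA precursor Rn45s was highest in knockout replicate 1, at 7184 CPM against 2807 to 3135 CPM in the other libraries. Fxr1 itself had 18.0 and 18.5 CPM in the knockout libraries, against 97.9 and 101.3 CPM in the wild type libraries, so the labels and the targeted transcript matched.

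The levels and shares that follow are those of the pull-down, which also held transcripts of other cells, as given above. The part of each T-type level that came from such cells was not tested. Cacna1i was by far the most abundant T-type transcript in both genotypes. Per kilobase of exon, which allows levels of different genes to be compared, it averaged 14.1 ± 0.0650 CPM per kb in knockout and 15.3 ± 1.28 CPM per kb in wild type (SD, n = 2 each). Cacna1g averaged 2.58 ± 0.254 CPM per kb in knockout and 2.83 ± 0.865 in wild type. Cacna1h averaged 1.45 ± 0.0303 CPM per kb in knockout and 2.39 ± 0.0997 in wild type. Exon lengths were 9862 bases for Cacna1i, 10137 for Cacna1g and 9763 for Cacna1h, so these lengths differ little. The longest transcripts differ more, at 9781, 8383 and 8230 bases in the same order. The order Cacna1i, Cacna1g, Cacna1h held in both knockout libraries. In wild type the lower places were not separated: the ratio of Cacna1h to Cacna1g per kb was 0.675 in wild type replicate 2 and 1.11 in wild type replicate 3, against 0.615 and 0.519 in knockout replicates 1 and 3.

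Expressed as shares of the summed T-type level per kb, Cacna1h took 8.25% and 7.83% in knockout replicates 1 and 3, against 11.5% and 11.8% in wild type replicates 2 and 3. The genotypes did not overlap in this share, which averaged 8.04 ± 0.296% in knockout and 11.7 ± 0.193% in wild type (SD, n = 2 each). The difference was −3.61 percentage points, with a two-sided exact permutation p of 0.333, the smallest that 2 libraries against 2 can give. Cacna1g took 13.4% and 15.1% in knockout, against 17.1% and 10.6% in wild type, so the wild type libraries lay on both sides of the knockout libraries. Cacna1i took 78.3% and 77.1% in knockout, against 71.4% and 77.6% in wild type, and here the genotypes overlapped as well. The choice of length shifted the shares but not the direction for Cacna1h. By the longest transcript, Cacna1h averaged 9.08% in knockout and 13.1% in wild type, and Cacna1i 74.5% in knockout and 71.1% in wild type. On bare counts, the Cacna1h share was 8.15% in knockout replicate 1 (95% Wilson interval 6.96 to 9.51, of 1780 T-type counts) and 7.73% in knockout replicate 3 (6.61 to 9.03, of 1876). It was 11.4% in wild type replicate 2 (10.03 to 12.8, of 1945) and 11.7% in wild type replicate 3 (10.4 to 13.1, of 2111). The intervals cover counting error only, and those of the knockout libraries lay below those of the wild type libraries.

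**Figure D1:**
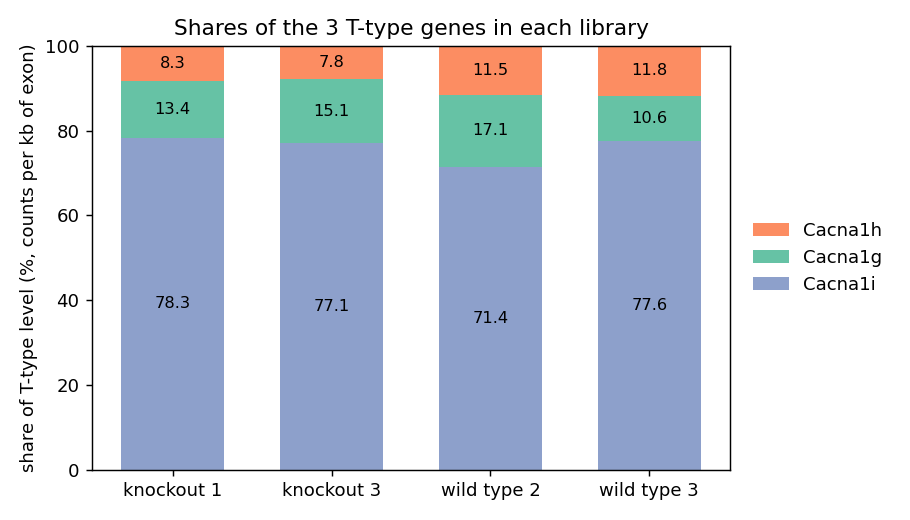
Stacked bars give the share (%) of each T-type gene in the summed T-type level, in counts per kilobase of exon, for each of the 4 libraries, with the share written in each segment. The Cacna1h segment is 8.25% and 7.83% in the knockout bars and 11.5% and 11.8% in the wild type bars, while the segments of the other genes differ as much between the wild type bars as between genotypes.

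The main comparison asked whether loss of Fxr1 changed the level of each T-type transcript on ribosomes. Cacna1h showed the clearest separation of the 3 genes, at 60.8% of the wild type level. No T-type gene passed the threshold over all genes (0 of 3 at an adjusted p under 0.05 by edgeR, where 0.0321% of all tested genes passed), and Cacna1h missed it, at an adjusted p of 0.052 by edgeR. DESeq2 and limma voom, which called 2 and 3 genes over the whole table, called 0 of the 3 and 0 genes of the related lists described further on. At an unadjusted p under 0.05, 1 of the 3 was lower in knockout, Cacna1h, where 1.61% of tested genes were called lower. A lower level in such bulk material cannot tell apart fewer cells that use the gene, less of the RNA per cell, and less of it on tagged ribosomes, since no input RNA was analysed here.

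Cacna1h, the gene of Cav3.2, had 145 and 145 counts in knockout replicates 1 and 3, against 221 and 246 counts in wild type replicates 2 and 3. Scaled for library size these are 14.4 and 14.0 CPM in knockout, against 22.7 and 24.0 CPM in wild type. Both knockout libraries lay below both wild type libraries, and the gap between the genotypes was several times the gap within either. Each of the knockout to wild type ratios between single libraries fell between 0.582 and 0.636, whereas the ratio within a genotype was 1.03 in knockout (replicate 1 over 3) and 0.943 in wild type (replicate 2 over 3). The edgeR quasi-likelihood test gave a log2 fold change of −0.72 with a standard error of 0.14 and a 95% interval of −1.005 to −0.43. The interval corresponds to 49.8% to 74.1% of the wild type level. Counting error alone would give a standard error of 0.11.

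By unadjusted p, 2.09e-05, Cacna1h ranked 5 of all tested genes. The rank above belonged to Tmem181b-ps, with an adjusted p of 0.0399 by edgeR, and the rank below to Cntn6, a contactin gene, with an adjusted p of 0.1002 by edgeR. Among the 3884 tested genes of a like level, a mean of 10 to 40 CPM, 2 had a log2 fold change as low as that of Cacna1h, itself included, and 1 had one as high in the other direction. The 5th and 95th percentiles of these genes were −0.23 and 0.22. This window of levels was chosen after the values were seen. Cacna1h would pass when no low counts were filtered out (adjusted p = 0.0023 by edgeR) and without knockout replicate 1 or 3 (adjusted p = 0.0116 and 0.0162 by edgeR). By DESeq2 the unadjusted p was 0.000564 and the adjusted p 0.99997, and over all alternatives the adjusted p by these tools ran from 0.0023 to 0.99997.

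Cacna1g, the gene of Cav3.1, had 24.3 and 28.0 CPM in knockout replicates 1 and 3, against 34.9 and 22.5 CPM in wild type replicates 2 and 3. The knockout libraries lay between the wild type libraries, whose own values differed 1.55-fold. The means were 26.2 ± 2.57 CPM in knockout and 28.7 ± 8.76 CPM in wild type (SD, n = 2 each). The log2 fold change was −0.13 with a 95% interval of −0.56 to 0.30, and the adjusted p by edgeR was 0.998. Wild type replicate 2 set its sign: the log2 fold change was 0.22 without that library and −0.41 without wild type replicate 3. The interval reaches down to 67.9% of the wild type level and up to 123%. The estimate for Cacna1h, 60.8%, lay below it, but the Cacna1h interval, 49.8% to 74.1%, overlapped it.

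Cacna1i, the gene of Cav3.3, had 138 and 139 CPM in knockout replicates 1 and 3, against 142 and 159.8 CPM in wild type replicates 2 and 3. Both knockout libraries again lay below both wild type libraries, but by less than the distance between the wild type libraries. The log2 fold change was −0.12 with a 95% interval of −0.29 to 0.04, and the adjusted p by edgeR was 0.998. Of the T-type genes it is measured most precisely, with 2831 counts in knockout and 3019 in wild type, and a level under 81.9% of wild type lay outside its interval. Leaving out wild type replicate 3 gave −0.03, and leaving out wild type replicate 2 gave −0.20. In all, the genotypes did not overlap for 2 of the 3 genes, both lower in knockout, where 15.2% of all tested genes were lower without overlap and 30.1% were apart in either direction.

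**Figure D2:**
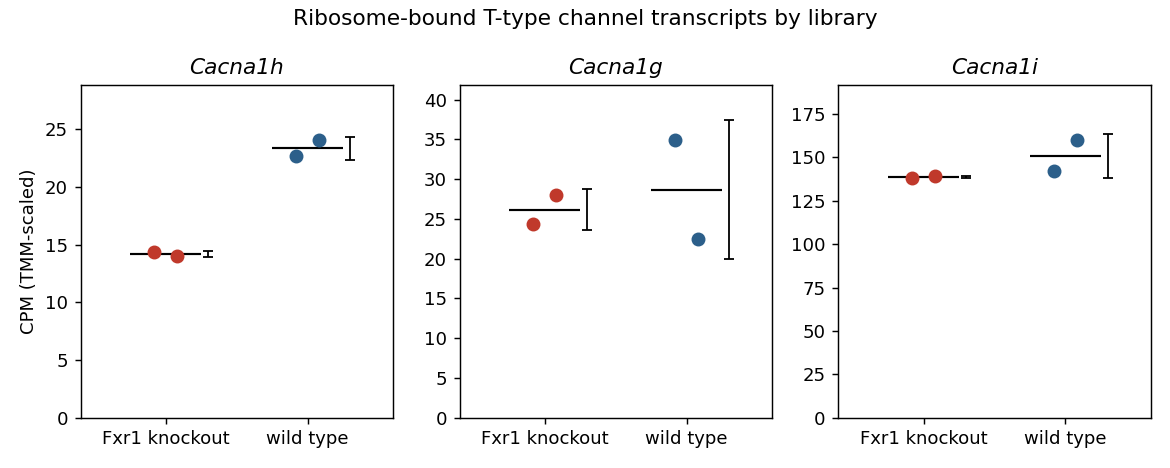
Each panel plots the TMM-scaled CPM of a T-type gene in the knockout libraries (red, left) and the wild type libraries (blue, right), n = 2 each. Horizontal lines are means, bars beside them are the SD, and each vertical axis starts at 0. For Cacna1h the points sit at 14.4 and 14.0 CPM in knockout and 22.7 and 24.0 CPM in wild type, whereas for Cacna1g the wild type points lie on both sides of the knockout points.

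Whether Cacna1h departed from its relatives was asked from ratios within each library, which do not depend on library scaling. The ratio of Cacna1h to Cacna1i per kb was 0.105 and 0.102 in knockout replicates 1 and 3, against 0.161 and 0.152 in wild type replicates 2 and 3. The ratios of the genotypes did not overlap. On the log2 scale, the count ratio averaged −3.29 ± 0.0368 in knockout and −2.69 ± 0.0607 in wild type (SD, n = 2 each), a difference of −0.60. The two-sided exact permutation p was 0.333, the smallest this design allows. Without any single library the difference stayed between −0.64 and −0.55. The ratios to Cacna1g, given above per kb, did not overlap either. On the log2 scale the count ratio averaged −0.88 ± 0.172 in knockout and −0.26 ± 0.508 in wild type, with a difference of −0.62 and an exact permutation p of 0.333, but the difference was −0.26 when wild type replicate 3 was left out and −0.98 when wild type replicate 2 was. For Cacna1g over Cacna1i the difference was 0.02, with overlapping genotypes and an exact permutation p of 1.

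The summed T-type level was 17.9 and 18.3 CPM per kb in knockout replicates 1 and 3, against 20.2 and 20.9 CPM per kb in wild type replicates 2 and 3. The genotypes did not overlap, and the log2 ratio of the means was −0.18 (two-sided exact permutation p = 0.333, the smallest possible). Because Cacna1i makes up most of that sum, the total differs far less than Cacna1h does.

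**Figure D3:**
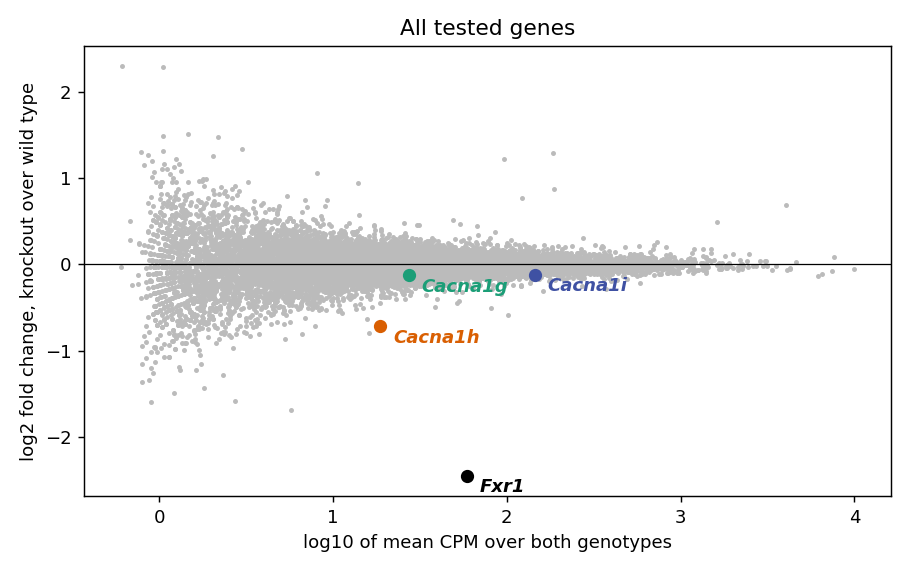
Each grey point is a tested gene (12449), with the log10 of its mean CPM over both genotypes on the horizontal axis and its log2 fold change, knockout over wild type, on the vertical axis. Cacna1h, at −0.72, lies below the band formed by genes of its level, while Cacna1g (−0.13) and Cacna1i (−0.12) lie inside it and Fxr1 (−2.45) is the lowest point.

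The other pore genes of voltage-gated calcium channels, which open at higher voltages, did not pass the test. Of the 7, 5 were tested: Cacna1a, which encodes the P/Q-type channel that triggers transmitter release from parvalbumin neurons, Cacna1b (N-type), Cacna1c and Cacna1d (L-type) and Cacna1e (R-type). None of the 5 passed the edgeR test at an adjusted p under 0.05, 0 had an unadjusted p under 0.05 (3.23% of all tested genes did), and 0 had genotypes that did not overlap (30.1% of all tested genes). A count of 0 is near the share of 3.23%, and 5 genes are too few to weigh a count of 0 against the share of 30.1%. Their log2 fold changes ran from −0.07 for Cacna1c to 0.05 for Cacna1d, with a median of 0.02, against a median of −0.13 for the T-type genes and −0.0015 for all tested genes. The muscle and retina genes Cacna1s and Cacna1f were not tested, with at most 9 and 2 counts in a library.

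Per kilobase of exon, Cacna1a led the pore genes at 51.6 ± 1.10 CPM per kb in knockout and 50.9 ± 1.76 in wild type (SD, n = 2 each). Cacna1i came next in both genotypes, with Cacna1b behind it at 13.7 ± 0.536 CPM per kb in knockout and 13.9 ± 0.545 in wild type. The ranges of mean ± SD of Cacna1i and Cacna1b overlapped in both genotypes, so their order is not settled by these libraries. Cacna1g and Cacna1h held the last places of the 8 tested pore genes. Together the T-type genes made up 17.9% of the summed pore gene level in knockout and 19.9% in wild type. Cacna1h alone made up 1.44% in knockout and 2.32% in wild type. Genes such as Cacna1e and Cacna1c have long annotated exons, so their levels per kb depend on which ends the neurons use.

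**Figure D4:**
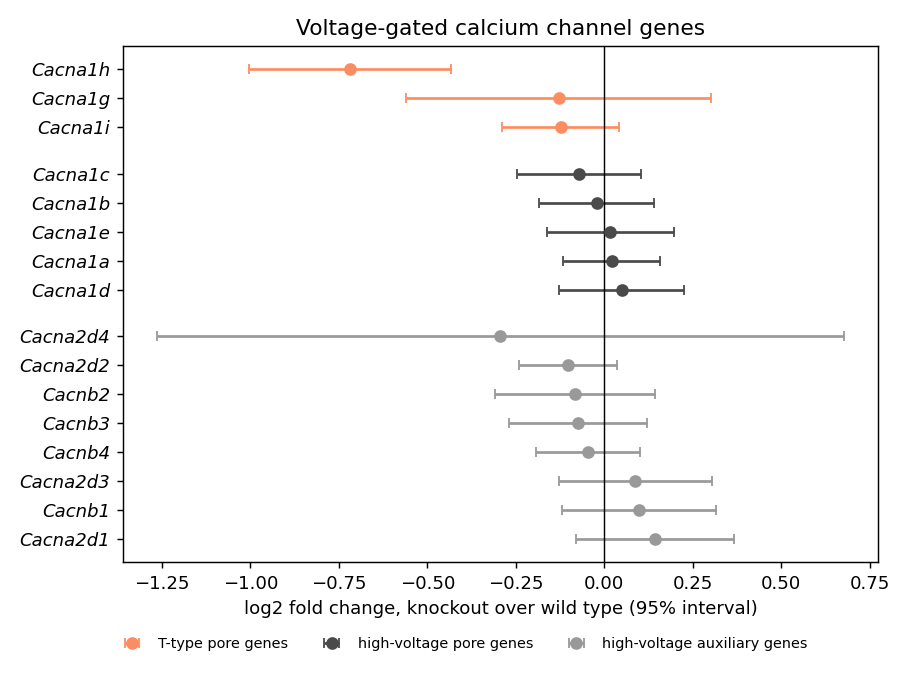
Points are log2 fold changes, knockout over wild type, with 95% intervals from the edgeR fit (n = 2 libraries each), for T-type pore genes (orange), high-voltage pore genes (dark grey) and high-voltage auxiliary genes (light grey). Only the interval of Cacna1h, −1.005 to −0.43, leaves out 0 among the genes drawn.

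The auxiliary subunits, which traffic and tune the high-voltage channels and are not required by T-type channels, did not pass either. Of 8 tested genes, 0 passed at an adjusted p under 0.05 or had an unadjusted p under 0.05 by edgeR, 3 lay above 0 and 5 below (50.4% of all tested genes lay below 0), and the median log2 fold change was −0.06. Cacna2d2, the main alpha2delta gene here, averaged 516 ± 13.9 CPM in knockout and 554 ± 21.7 CPM in wild type (SD, n = 2 each), a log2 fold change of −0.10. Cacna2d1 averaged 47.3 ± 7.11 CPM in knockout and 42.8 ± 0.822 CPM in wild type, a log2 fold change of 0.14.

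Genes reported to bind or modulate T-type channels showed no change that passed. The list holds 23 genes, such as the deubiquitinase gene Usp5, the calmodulin genes and subunits of the kinase CaMKII, which phosphorylates Cav3.2. Of the 22 tested, 0 had an unadjusted p under 0.05 by edgeR, against 3.23% of all tested genes in either direction, and the median log2 fold change was −0.03. The smallest p belonged to Camk2g, a CaMKII gene at 529 ± 30.9 CPM in knockout and 571 ± 18.1 CPM in wild type (log2 fold change −0.11). Calm2, a calmodulin gene, followed at 1166 ± 20.6 CPM in knockout and 1233 ± 14.0 CPM in wild type (−0.08).

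Channels that act in the same voltage range or are opened by T-type calcium entry numbered 11. Of these, 0 passed at an adjusted p under 0.05 by edgeR and 1, Hcn3, had an unadjusted p under 0.05, against 3.23% of all tested genes in either direction. The genotypes did not overlap for 3 genes higher and 2 lower of the 11, against 30.1% of all tested genes. They include the SK potassium channels, which calcium opens, and the HCN channels, which conduct after hyperpolarization. Hcn3, the gene of an HCN channel, had an unadjusted p of 0.012 and an adjusted p of 0.998 by edgeR, with 9.24 and 13.8 CPM in knockout replicates 1 and 3, against 5.03 and 8.70 CPM in wild type replicates 2 and 3. Kcnd3, a Kv4 potassium channel gene whose channels form complexes with Cav3 channels, had 20.1 and 20.8 CPM in knockout, against 23.6 and 22.9 CPM in wild type, and a log2 fold change of −0.18.

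Factors reported to act on Cacna1h transcription were low to moderate in level. Rest, a repressor of neuronal genes reported to repress Cacna1h, had 3.88 and 3.28 CPM in knockout replicates 1 and 3, against 2.67 and 1.17 CPM in wild type replicates 2 and 3. Its log2 fold change was 0.90, with an unadjusted p of 0.02 and an adjusted p of 0.998 by edgeR. Egr1, an activity-induced activator reported to act on Cacna1h, had 10.9 and 13.8 CPM in knockout, against 15.0 and 11.9 CPM in wild type, with overlapping genotypes. Of the 3 factors 0 passed over all genes and 1, Rest, had an unadjusted p under 0.05 by edgeR, against 3.23% of all tested genes. The other, the zinc-sensing factor gene Mtf1, had a log2 fold change of 0.09.

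Genes around Cacna1h on chromosome 17 did not pass the test. Close tested genes on the lower side were Tsr3 (log2 fold change −0.31), a ribosome maturation gene, and Gnptg (−0.02), a lysosomal sorting gene. On the higher side were Sox8 (0.10), a transcription factor gene, 2810468N07Rik (−0.50) and Lmf1 (0.04), a lipase maturation gene. None passed the edgeR test at an adjusted p under 0.05. Of these 5, 0 had an unadjusted p under 0.05 by edgeR, against 3.23% of all tested genes. The low count gene 2810468N07Rik had 1.89 and 1.64 CPM in knockout, against 2.26 and 2.74 CPM in wild type. Tsr3 had 8.15 and 7.62 CPM in knockout, against 10.26 and 9.29 CPM in wild type. Both were lower without overlap of the genotypes, as were 15.2% of all tested genes, and 30.1% were apart in either direction.

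To find genes with a like pattern, log2 CPM was centred on each gene's mean over the 4 libraries, and genes were ranked by the root mean square difference from each T-type gene, among the other 8429 genes of at least 10 CPM on average. The nearest to Cacna1h were Tmem181b-ps (difference 0.0925), Hbegf (0.105), Tmem218 (0.106), Pck2 (0.111) and Enho (0.113). Only 1 gene came within 0.1 of Cacna1h. The profile of Cacna1g was nearest to those of Zfhx4, Stk3, 6820431F20Rik, Pef1 and Pkd2, and 19 genes came within 0.1. That of Cacna1i was nearest to Zfp35, Ercc3, Zfp711, Bccip and Cog3, but 3220 genes came within 0.1, many genes sharing its near-flat profile. With 4 libraries a likeness of this kind is a description.

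Marker levels of other cells were set beside the Cacna1h values. Parvalbumin neuron markers summed to 13331 to 13822 CPM in knockout and 13767 to 13994 CPM in wild type over 10 genes. Excitatory markers summed to 1139 to 1160 CPM in knockout and 1083 to 1162 CPM in wild type over 10 genes, and somatostatin neuron markers to 58.0 to 85.8 CPM in knockout and 66.2 to 81.4 CPM in wild type over 6 genes. The sums of these lists overlapped between genotypes, but sums follow their most abundant genes, and single markers lay apart. Of the 10 parvalbumin neuron markers, 4 were lower in knockout without overlap (Pvalb, Gad1, Gad2 and Erbb4) and 0 higher. Of all tested genes, 15.2% were lower and 14.9% higher in this way. None of the 10 had an unadjusted p under 0.05 by edgeR, against 3.23% of all tested genes in either direction. Pvalb itself had 251 and 239 CPM in knockout replicates 1 and 3, against 260.3 and 266 CPM in wild type replicates 2 and 3 (log2 fold change −0.10). Of the 5 tested somatostatin neuron markers, Nos1, the neuronal nitric oxide synthase gene, was lower without overlap, at 15.8 and 15.5 CPM in knockout against 22.1 and 20.8 CPM in wild type (log2 fold change −0.45, unadjusted p = 0.00313 and adjusted p = 0.998 by edgeR). Elfn1, a synaptic adhesion gene, was higher without overlap, at 10.1 and 10.32 CPM in knockout against 6.98 and 7.23 CPM in wild type (0.52, unadjusted p = 0.0109 and adjusted p = 0.998 by edgeR). Of the 10 excitatory markers 4 were higher and 1 lower without overlap. The sums of markers of other interneurons (Vip, Cck, Calb2, Cnr1, Lamp5, Ndnf and Reln) did not overlap. They came to 238 to 263 CPM in knockout and 265 to 283 CPM in wild type, a gap smaller than that between the knockout libraries. Of the 6 tested, 4 lay below 0 in log2 fold change. Without overlap 1 was lower (Reln) and 1 higher (Lamp5), against 15.2% lower and 14.9% higher of all tested genes. Oligodendrocyte markers summed to 290.4 to 401 CPM in knockout and 284 to 311 CPM in wild type over 9 genes. Of these, 8 lay above 0 in log2 fold change and 1 below, where 50.4% of all tested genes lay below 0. Their genotypes were apart for 2 genes higher and 0 lower, and 1, Mal, had an unadjusted p of 0.0258 by edgeR. Astrocyte markers summed to 687 to 763 CPM in knockout and 687 to 692 CPM in wild type over 7 genes. Of these, 6 lay above 0 and 1 below, with 1 higher and 0 lower without overlap. Striatal markers summed to 237 to 271 CPM in knockout and 255 to 266 CPM in wild type over 9 genes. Most of the striatal sum comes from Pde10a and Tac1, whose genotypes overlapped, while 6 of the 9 striatal markers were higher in knockout without overlap and 0 lower, where 14.9% of all tested genes were higher in this way. Of the 9, 4 had an unadjusted p under 0.05 by edgeR, against 3.23% of all tested genes in either direction. These 4, all higher in knockout, were Drd2 and Adora2a, each with a log2 fold change of 0.96, and Ppp1r1b and Penk, each at 0.38. At an adjusted p under 0.05, 0 of the 9 passed. Microglial and endothelial markers summed to 18.7 to 24.5 CPM in knockout and 20.4 to 23.0 CPM in wild type over 7 genes. No marker gene looked for was at 0 in all 4 libraries. Tac1 stands in both the parvalbumin and the striatal list, and Camk2a in both the excitatory list and that of T-type regulators. The part of these levels in the Cacna1h result was not tested. Genes of RNA quality summed to 13001 to 16886 CPM in knockout and 12124 to 13231 CPM in wild type, with Rn45s highest in knockout replicate 1. Rmrp, a noncoding RNA, had an unadjusted p of 0.0217 and an adjusted p of 0.998 by edgeR (log2 fold change 0.39), and Rpph1, another, a log2 fold change of −0.11. Leaving out these 6 genes does not alter the Cacna1h counts, so it cannot show whether RNA quality bears on them. The log2 fold change of Cacna1h was then −0.72, and without knockout replicate 1 it was −0.74. The part of RNA quality in the Cacna1h result was not tested.

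**Figure D5:**
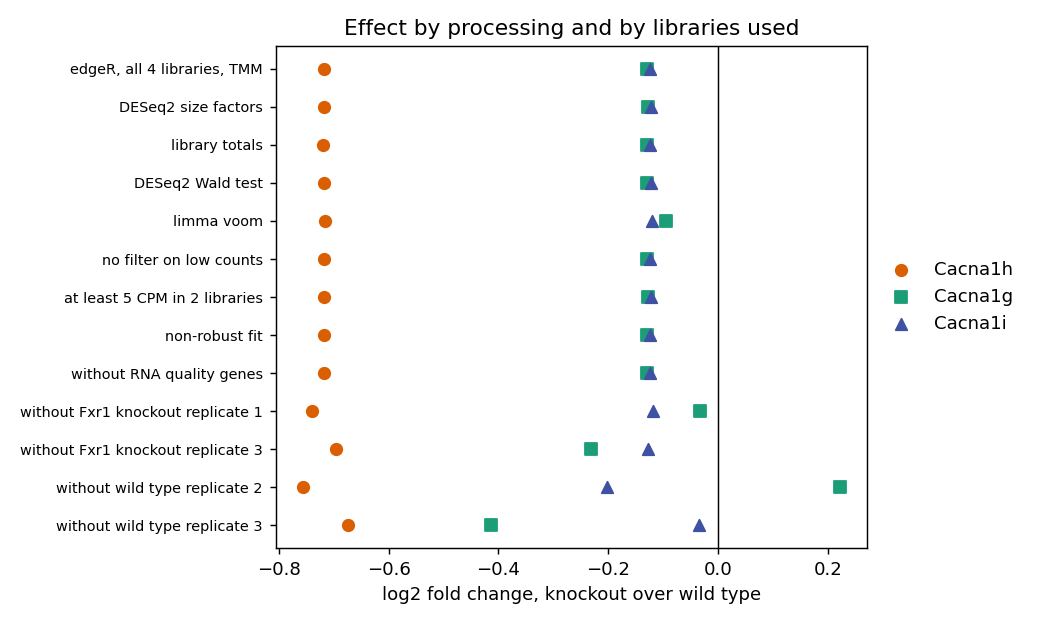
The horizontal axis gives the log2 fold change, knockout over wild type, of Cacna1h (circles), Cacna1g (squares) and Cacna1i (triangles). From top to bottom stand the edgeR fit on all 4 libraries and the 12 alternatives in processing or libraries. Cacna1h stays between −0.76 and −0.67 throughout, Cacna1i between −0.20 and −0.03, and Cacna1g between −0.41 and 0.22, crossing 0 without wild type replicate 2.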

How the data were processed

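Ribosome-bound RNA from frontal cortex was made into libraries with a stranded total RNA kit, per the labels' protocols. STAR and mm10 are the aligner and build named in the submitters' processing notes; how reads were counted, with which annotation and strand setting, is not given in the sources used here. The values are raw, unnormalized counts for each gene symbol, as deposited by the authors. Genotypes come from the labels and replicate numbers from accession order. Of the count columns, 4 matched the title of a single sample; 2 columns carried the title of wild type replicate 1 and were not used, so the comparison is 2 libraries against 2. The whole table was fitted with edgeR 4.0.16 in R 4.3.3 (TMM, filterByExpr, robust quasi-likelihood fit, Benjamini-Hochberg over all 12449 tested genes, threshold 0.05), and the script was tested on simulated data. Standard errors come from the F statistic, with a median of 0.13 on the log2 scale. Single values were compared by an exact permutation test over libraries. Lengths are unions of exons in GENCODE M21. Alternatives used DESeq2 1.42.0 and limma 3.58.1, other filters and scalings, and each library left out.

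The T-type genes and the gene lists were chosen with earlier results of these data known. Genes named are the T-type genes, Fxr1, all tested high-voltage pore genes, the 2 members with the smallest p of each other list that is not a marker list, the 3 nearest tested genes on each side of Cacna1h, and the 5 genes nearest in profile. Some of these genes are not reported here. Any further gene gives a background level or was picked with its values in view. Rack1 was found under an older symbol through the RefSeq table.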

Additional observations from a re-analysis of the deposited data

How the results depend on the processing

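Cacna1h kept its direction under all 12 alternatives. These reuse the same 4 libraries, in which both knockout values lay well below both wild type values, so the direction could hardly have turned. It passed by edgeR with no filter on low counts (log2 fold change −0.72, adjusted p = 0.0023). With a library left out its log2 fold change lay between −0.76 and −0.67. It then passed without either knockout library, but not without wild type replicate 2 or 3 (adjusted p = 0.0709 and 0.134 by edgeR). These fits assume that the lone library of a genotype varies as the other genotype does. Cacna1g lay between −0.41 and 0.22 with a library left out, turning to 0.22 without wild type replicate 2. Its share of the T-type level, 0.42 percentage points higher in knockout, lay between −2.81 and 3.64 and turned without knockout replicate 3 (−0.41) and without wild type replicate 3 (−2.81). The Cacna1h share difference lay between −3.82 and −3.40 points with a library left out, and was −4.01 points by the longest transcript. That of Cacna1i lay between 0.11 and 6.28 points with a library left out. The 4 genes past the threshold over the whole table became 1 with library totals, 13 with no filter on low counts and 2 by DESeq2's Wald test, and 9 to 48 with a library left out. For all of these the cause was not tested. At 145 to 246 counts per library, counting error limits the precision of Cacna1h. No paired analysis was possible because replicates are numbered by accession order.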
